A study of Homo sapiens with 12 samples.

Results

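FGF19, FGF21, KLB, FGFR4 and GDF15 form a small group of genes for hormone-like secreted factors and for the receptor that reads one of them. Their rows were found by name, and they are 5 of the 34687 rows of the deposited expression table. The names were chosen by measured values of these same columns, in which FGF19 and GDF15 were high with ICG-001. KLB and FGFR4 encode the receptor parts that FGF19 uses, and FGF21 is another secreted factor that uses KLB. The levels and ratios of the 5 genes given here are therefore a description, with no test.

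RNA was measured on Illumina HumanHT-12 v4 arrays, on which labelled RNA binds to gene probes and the brightness of each probe is read, in HCT116, a human colon cancer cell line, and in PANC1, a human pancreatic adenocarcinoma cell line. Cells of each line were given the solvent DMSO at 0.05% as the control, or 10 uM of ICG-001, or 10 uM of C646, and were collected after 12 or 96 h, which makes 12 groups. ICG-001 binds the acetyltransferase CBP and blocks its contact with β-catenin, and C646 inhibits the acetyltransferase activity of p300 and, by proposal, of CBP, so the study asked whether a CBP-specific and a general inhibitor change the same genes. Each group is a single column of the table, the authors' mean of 2 arrays (3 arrays for PANC1 with ICG-001 at 12 h), so no error can be given and no test was run. Both models are tumor lines grown in culture, and in such bulk RNA fewer cells expressing a gene and less RNA per cell cannot be told apart.

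Most fibroblast growth factors act close to the cell that releases them, but FGF19, FGF21 and FGF23 bind heparan sulfate weakly, enter the blood and need a klotho protein to hold them on their receptor. FGF19 is made by the cells of the ileum when bile acids activate the nuclear receptor FXR (NR1H4), and in the liver it binds FGFR4 together with β-klotho (KLB) and represses bile acid synthesis. FGF21 uses KLB too and is released by the liver in fasting and under stress. GDF15 is a distant member of the TGF-β family that many cells release under stress, and its receptor GFRAL, with the co-receptor RET, sits in the hindbrain.

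Changed means, throughout, a ratio between 2 columns of at least 1.5 in either direction. A gene was tested in a comparison when its signal was above the detection limit in at least 1 of the 2 columns. The limit, set where the bulk of dim background values ends, ran from 144.1 to 144.9 units of signal among the HCT116 columns and from 136.4 to 138.6 among those of PANC1. Between 43.6% and 46.3% of the genes of a column were above it. The HCT116 columns had median signals of 139.05 to 139.64, and the PANC1 columns of 132.69 to 133.53. Each line seems to have been normalized on its own, so signals are compared within a line, and the signal of one gene is not set against that of another.

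A few facts of the columns bear on the results. All 5 epithelial markers (EPCAM, KRT8, KRT18, KRT19 and CDH1) were above the limit in every column of both lines. Of 5 intestinal markers CDX2 alone was above it in HCT116. In PANC1 3 of the 5 were above it in at least 1 column and CDX2 alone in all, so this list does not set the colon line apart. Of 4 markers of ileal enterocytes, the cells that normally make FGF19, FABP6 alone was above it in HCT116. Their summed signal there was 532 to 586, and 0 of the 4 were above the limit in PANC1. Of 4 leukocyte markers, 0 were above the limit in HCT116 and 1 (CD14) in PANC1. In PANC1 the 2 DMSO columns differed at 217 genes, and the column of ICG-001 at 12 h differed from DMSO at 12 h at 434 genes but from DMSO at 96 h at 228. The column of C646 at 12 h likewise differed from DMSO at 12 h at 1171 genes and from DMSO at 96 h at 552. GDF15 and the counts of stress genes in PANC1 are for that reason given against both DMSO columns.

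Promoter sequences are shown for GDF15, on which most results turn, and for FGF21 and KLB, where a searched motif was found. RefSeq (GRCh38.p14) entries were used for 4 of the 5 genes, and each run is the 250 bases before the gene's start, on the plus strand. Capitals mark a match to TGATGNAA (the C/EBP-ATF composite element, bound by ATF4 and CHOP) or CTTTGAT (the TCF/LEF element), searched on both strands together with TGANTCA (AP-1), which had no match in these promoters.
GDF15 (chr19:18385908-18386157): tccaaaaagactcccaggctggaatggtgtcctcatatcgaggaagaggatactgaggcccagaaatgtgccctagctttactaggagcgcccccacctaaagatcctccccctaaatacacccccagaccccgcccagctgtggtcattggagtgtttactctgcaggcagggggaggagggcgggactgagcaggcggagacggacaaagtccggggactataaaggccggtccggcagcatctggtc
FGF21 (chr19:48755274-48755523): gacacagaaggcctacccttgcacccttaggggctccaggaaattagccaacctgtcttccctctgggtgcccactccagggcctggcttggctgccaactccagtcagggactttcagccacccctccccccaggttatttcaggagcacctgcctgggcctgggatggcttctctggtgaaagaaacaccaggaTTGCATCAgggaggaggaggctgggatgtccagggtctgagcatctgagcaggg
KLB (chr4:39406680-39406929): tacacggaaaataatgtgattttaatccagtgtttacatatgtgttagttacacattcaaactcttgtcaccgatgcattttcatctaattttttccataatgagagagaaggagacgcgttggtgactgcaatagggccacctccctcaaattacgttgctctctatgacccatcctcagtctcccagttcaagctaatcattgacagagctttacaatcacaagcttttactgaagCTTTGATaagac
The GDF15 window held none of the 3 motifs and was 58.4% GC, against a median of 58.0% over 35116 promoters. In the FGF21 window TGATGNAA matched on the minus strand at bases -54 to -47 from the start, and 3.1% of all promoters held it. In the KLB window CTTTGAT matched at bases -12 to -6, which 2.3% of all promoters held, and TGANTCA was in 6.6% of them. The FGFR4 entries held none. These are matches of letters in 1 window and say nothing about binding.

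FGF19, the bile acid signal of the ileum, was measured in HCT116 and rose with ICG-001 alone of the 2 drugs. In HCT116 the DMSO columns had signals of 459.9 at 12 h and 435 at 96 h. ICG-001 gave 1473 at 12 h and 3135 at 96 h, and C646 gave 389.5 and 478. Both ICG-001 columns lay above the other 4, which stayed between 389.5 and 478, and the later ICG-001 column was the highest. In PANC1 the signal at 12 and 96 h was 118.3 and 135.9 in DMSO, 132.9 and 133.0 in ICG-001, and 126.0 and 128.4 in C646. None of the 6 PANC1 columns was above the detection limit, so a PANC1 change in FGF19 was not detectable on these arrays.

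GDF15, the stress-released factor, was above the limit in all 12 columns and changed in both lines. In HCT116 its DMSO signals were 2607 at 12 h and 2859 at 96 h. ICG-001 gave 8741 at 12 h and 13074 at 96 h, and C646 gave 1242 and 5065. The ICG-001 columns were the highest, the DMSO columns lay close together, and the C646 columns fell on either side of them, the lowest at 12 h and above DMSO at 96 h. In PANC1 its DMSO signals were 1427 at 12 h and 3780 at 96 h. ICG-001 gave 4346 at 12 h and 2485 at 96 h, and C646 gave 824 and 1893. There the DMSO columns were themselves far apart, and the highest column, ICG-001 at 12 h, was near DMSO at 96 h. From lowest to highest column GDF15 spanned 10.5-fold in HCT116 and 5.28-fold in PANC1, and FGF19 spanned 8.05-fold in HCT116.

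**Figure D1:**
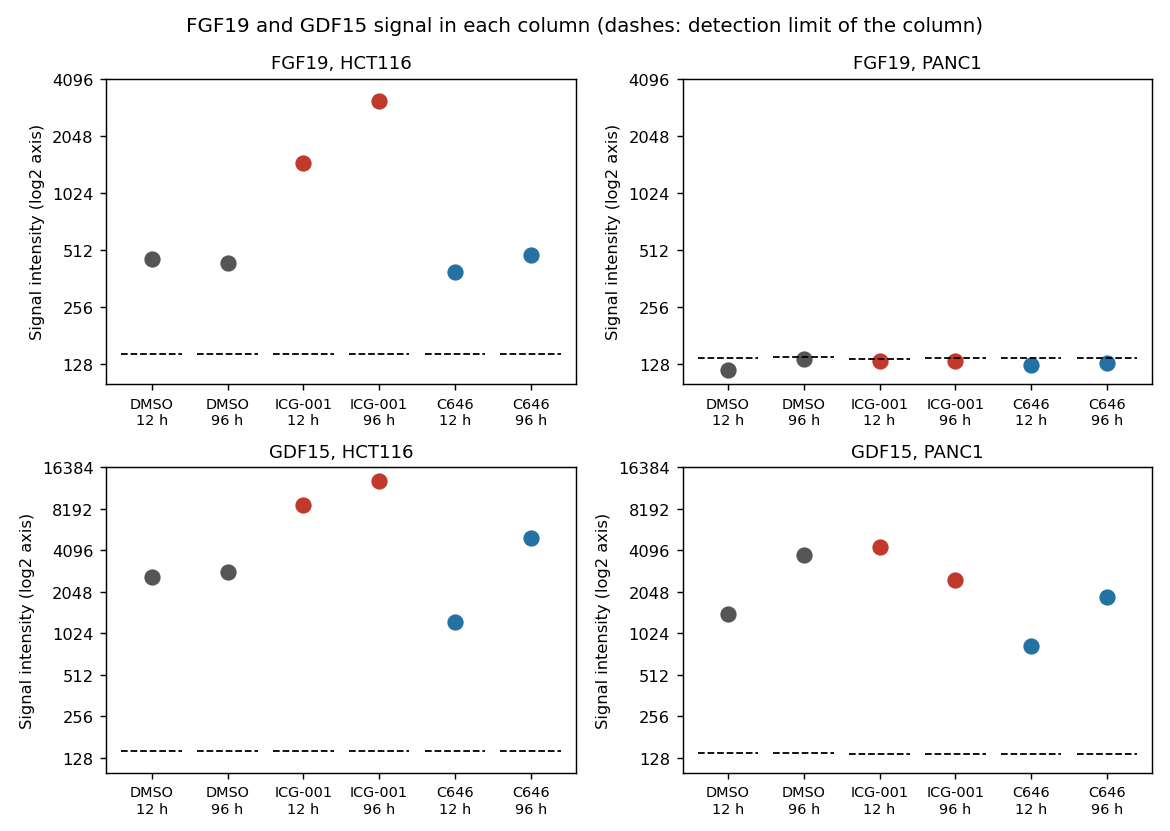
Signal intensity (log2 axis) of FGF19 (top) and GDF15 (bottom) in the 6 HCT116 columns (left) and the 6 PANC1 columns (right); each point is the authors' mean of 2 or 3 arrays, with no error available, and dashes mark the detection limit of the column. FGF19 in HCT116 reached 1473 and 3135 with ICG-001 and stayed between 389.5 and 478 elsewhere, FGF19 in PANC1 lay under the limit in all 6 columns, and GDF15 was above it in all 12.

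FGFR4, the receptor kinase that FGF19 uses in the liver, was measured in HCT116 and was lower with both drugs. Its HCT116 signals at 12 and 96 h were 261.6 and 318 in DMSO, 188.4 and 202.6 in ICG-001, and 204.4 and 216.5 in C646. All 4 drug columns lay below both DMSO columns, and the highest column was 1.69 times the lowest. In PANC1 FGFR4 was between 120.2 and 137.6, with 0 of the 6 columns above the limit.

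KLB, the β-klotho co-receptor, was close to the detection limit throughout. Its HCT116 signals at 12 and 96 h were 144.0 and 144.6 in DMSO, 145.0 and 156.0 in ICG-001, and 168.5 and 151.2 in C646. In PANC1 they were 136.9 and 142.8 in DMSO, 145.9 and 166.4 in ICG-001, and 162.8 and 144.4 in C646. In each line 5 of the 6 columns were above the limit, the exception being DMSO at 12 h, and the 4 drug columns of each line were above both of its DMSO columns, by a margin that stayed under 1.5-fold. The FGF21 signal was between 121.6 and 132.2 in HCT116 and between 118.1 and 125.6 in PANC1, with 0 of 12 columns above the limit. FGF21 therefore entered no comparison.

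**Figure D2:**
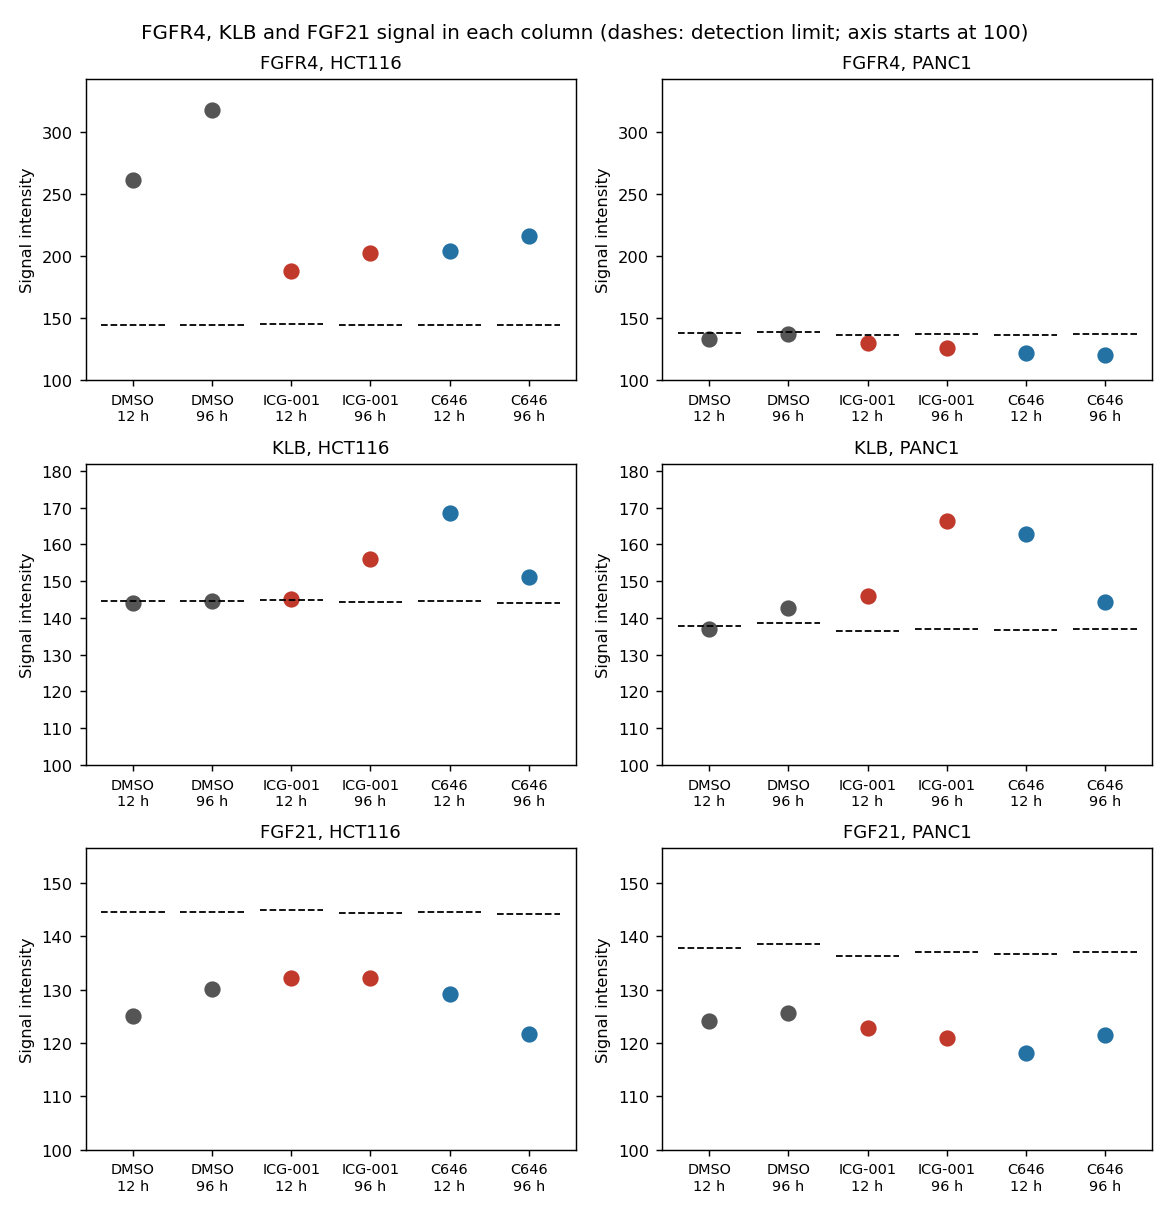
Signal intensity (linear axes that do not start at 0) of FGFR4, KLB and FGF21 in the 6 HCT116 columns (left) and the 6 PANC1 columns (right), with dashes at each column's detection limit and no error available. FGFR4 in HCT116 was 261.6 and 318 with DMSO and 188.4 to 216.5 with the drugs, KLB stayed near the limit, and FGF21 lay under it in all 12 columns.

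Over the 8 comparisons of a drug with DMSO of the same line and time, the 5 genes gave 40 ratios, of which 24 were tested and 11 changed, 6 higher and 5 lower. GDF15 changed in 8 of 8, higher in 4 and lower in 4. FGF19 changed in 2 of the 4 in which it was tested, FGFR4 in 1 of 4, and KLB in 0 of 8. The ICG-001 and the C646 comparison of a line and time share their DMSO column.

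In HCT116 with ICG-001 at 12 h, 2 of 4 tested members changed, beside 9.23% of all genes tested. FGF19 was 3.20-fold higher (log2 ratio 1.68) and was 34th from the top of 16572 genes. GDF15 was 3.35-fold higher (1.75) and 25th. FGFR4 had a log2 ratio of -0.47 and KLB of 0.01. At 96 h, 3 of 4 changed, beside 10.5% of all genes. FGF19 was 7.21-fold higher (2.85), 3rd from the top of 16728 genes, and GDF15 was 4.57-fold higher (2.19), 15th. FGFR4 was 1.57-fold lower, with a log2 ratio of -0.65, and KLB had 0.11. Set against the DMSO column of the other time, the FGFR4 ratio was -0.75 at 12 h and -0.37 at 96 h, so which of the 2 times passes 1.5-fold depends on the DMSO column used. FGF19 and GDF15 kept their rises against either DMSO column, with FGF19 at 1.76 and 2.77 and GDF15 at 1.61 and 2.3.

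In HCT116 with C646 at 12 h, 1 of 4 tested members changed, beside 4.25% of all genes tested. GDF15 was 2.10-fold lower (-1.07), 16th from the bottom of 16508 genes, while FGF19 had -0.24, FGFR4 -0.36 and KLB 0.23. At 96 h, 1 of 4 changed, beside 3.18% of all genes. GDF15 was now 1.77-fold higher (0.83), 66th from the top of 16561 genes. FGFR4 was 1.47-fold lower (-0.55), just short of the threshold, FGF19 had 0.14 and KLB 0.06. Against the DMSO column of the other time, FGFR4 was -0.64 at 12 h, past 1.5-fold, and -0.27 at 96 h. GDF15 thus lay on opposite sides of DMSO at the 2 times with C646, and against the DMSO column of the other time its ratios were -1.2 and 0.96.

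In PANC1 only GDF15 and KLB were above the limit. With ICG-001 at 12 h, 1 of 2 changed, beside 2.58% of all genes tested, and GDF15 was 3.05-fold higher (1.61), 19th from the top of 16793 genes. At 96 h, 1 of 2 changed, beside 7.61%, and GDF15 was 1.52-fold lower (-0.61), barely past the threshold and 570th from the bottom of 16871 genes. With C646 at 12 h, 1 of 2 changed, beside 6.83%, and GDF15 was 1.73-fold lower (-0.79), 173rd from the bottom of 17149 genes. With C646 at 96 h, 1 of 2 changed, beside 4.09%, and GDF15 was 2.0-fold lower (-1.0), 15th from the bottom of 16737 genes. The KLB log2 ratios in these comparisons were 0.09, 0.22, 0.25 and 0.02.

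These PANC1 values of GDF15 rest on which DMSO column is used, because GDF15 itself differed between them. From 12 to 96 h in DMSO, GDF15 was 2.65-fold higher (1.41), 5th from the top of 16304 genes, which was 1 of 2 tested members, beside 1.33% of all genes. In HCT116 the DMSO columns differed in 0 of 4 tested members, beside 3.2% of all genes, with log2 ratios of 0.13 for GDF15, -0.08 for FGF19, 0.28 for FGFR4 and 0.01 for KLB. Against the DMSO column of the other time, the PANC1 ratio of GDF15 with ICG-001 was 0.20 at 12 h and 0.80 at 96 h, and with C646 it was -2.20 at 12 h and 0.41 at 96 h. The rise with ICG-001 at 12 h was then no longer past 1.5-fold, and the lower values at 96 h turned into higher ones with both drugs. Lower GDF15 with C646 at 12 h was the PANC1 difference that passed in the same direction against either DMSO column.

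ICG-001 and C646 were given at the same dose and times, so they can be set against each other without a DMSO column. In HCT116 at 12 h, 2 of 4 tested members differed, beside 6.41% of all genes tested. GDF15 was 7.04-fold higher with ICG-001 (2.81), 2nd from the top, and FGF19 was 3.78-fold higher (1.92), 15th. At 96 h, 2 of 4 differed, beside 6.62%, and FGF19 was 6.56-fold higher with ICG-001 (2.71), 2nd from the top, and GDF15 2.58-fold (1.37), 50th. In PANC1 at 12 h, 1 of 2 differed, beside 2.57%, and GDF15 was 5.28-fold higher with ICG-001 (2.40), the highest ratio of 17205 genes. At 96 h, 0 of 2 differed in PANC1, beside 6.99%, and GDF15 was 1.31-fold higher (0.39). FGFR4 had log2 ratios of -0.12 and -0.10 between the drugs in HCT116, and KLB lay between -0.22 and 0.20 in the 4 comparisons. With no values of single arrays, no interval can be given for any of these differences.

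Within a treatment, GDF15 moved with time in most sets. With C646 it was higher at 96 h than at 12 h in both lines, 4.08-fold in HCT116 (2.03) and 2.3-fold in PANC1 (1.2). With ICG-001 it was higher at 96 h in HCT116 by 0.58 on the log2 scale, just short of 1.5-fold, and in PANC1 it was 1.75-fold lower (-0.81). FGF19 in HCT116 was 2.13-fold higher at 96 h with ICG-001 (1.09) and had 0.29 with C646. Over the same interval in DMSO, GDF15 had 1.41 in PANC1 and 0.13 in HCT116, and FGF19 had -0.08 in HCT116. The PANC1 rise with C646 was thus no larger than that in DMSO. Over all genes tested in HCT116, 1210 of 16780 changed with C646 and 1171 of 16733 with ICG-001. In PANC1 these were 84 of 17111 and 702 of 17167.

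**Figure D3:**
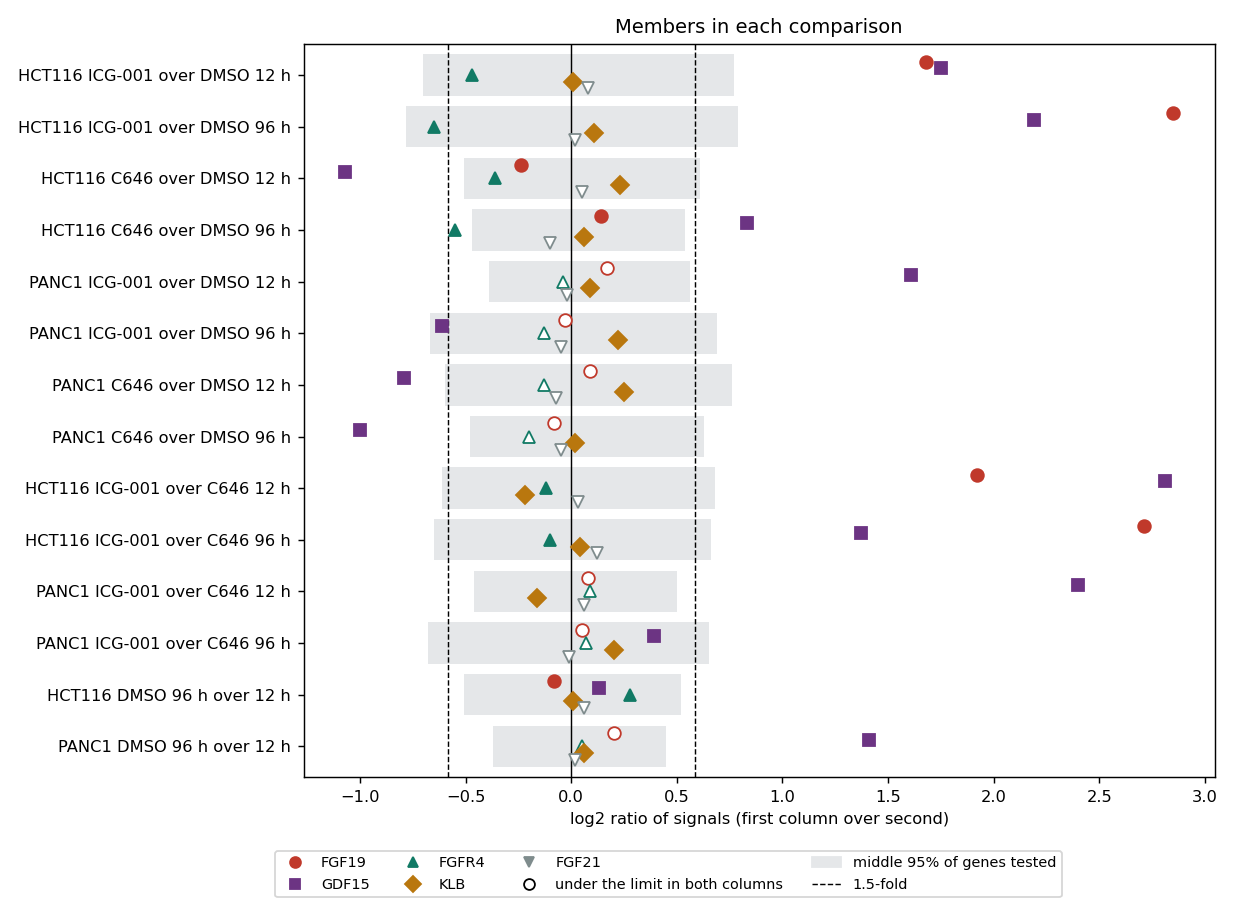
Log2 ratio of signals for the 5 genes in each comparison, the first column over the second; open symbols were under the limit in both columns, grey bars span the middle of the ratios of all genes tested (95% of them) and dashed lines mark 1.5-fold. FGF19 in the HCT116 ICG-001 comparisons lie outside the grey bar, as does GDF15 except with ICG-001 in PANC1 at 96 h (over DMSO and over C646) and between the HCT116 DMSO columns, while KLB lies inside it in all 14.

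Around the FGF19 axis, other parts of the FGF system were mostly dim or unmoved. Of 10 endocrine FGFs and FGF receptors, 5 or 6 were tested in HCT116 and 4 in PANC1. For this list and those below, the share of all genes changed in each drug comparison is the one given above, from 2.58% to 10.5%. In HCT116 with ICG-001, 1 was higher and 1 lower at 12 h, and 2 were higher and 1 lower at 96 h, the members included, while with C646 0 changed. KL (the klotho of FGF23), FGFR1 and FGFR2 were under the limit in all 12 columns. FGFR3, another FGF receptor kinase, was lower with ICG-001 in HCT116 at 12 h (-0.92; -0.22 at 96 h) and higher with C646 in PANC1 at 12 h (0.68, or 0.28 against DMSO at 96 h). FGFRL1, a receptor without a kinase domain that was named here after its values were seen, rose with ICG-001 in HCT116 at 96 h (0.70) and fell in PANC1 with C646 at 96 h (-0.83).

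Of 19 other FGF ligands, 4 were tested in HCT116 and 3 in PANC1, and a single one changed in the drug comparisons: FGF9, named after its values were seen, rose with ICG-001 in HCT116 at 96 h (1.13). Of 8 adaptors and early signal genes of FGF receptors, 6 were tested, and 1 was lower with ICG-001 in HCT116 at 12 h (PLCG1, -0.77) and 1 higher with C646 in PANC1 at 12 h (FRS3, 0.62, or 0.26 against DMSO at 96 h), both named after their values were seen. All 9 feedback genes of FGF signaling were tested. With ICG-001 in HCT116, where FGF19 rose, 0 of 9 changed at 12 h and 1 was lower at 96 h (SPRY1, -0.98, or -0.34 against DMSO at 12 h, also named after its values were seen). IL17RD, a membrane inhibitor of FGF signaling, was higher with C646 at both times, by 0.99 and 0.73 in HCT116 and by 1.36 and 1.22 in PANC1, and its HCT116 ratios for ICG-001 were 0.58 and 0.48. The PANC1 ratios of IL17RD for that drug were 0.79 at 12 h, past 1.5-fold, and 0.24 at 96 h. Against the DMSO column of the other time they were 0.40 and 0.63. IL17RD was the single feedback gene higher with C646, and the median of the 9 lay between -0.27 and -0.14 with C646. Lower with C646 were DUSP6 in HCT116 at 12 h (-0.61) and, in PANC1 at 96 h, SPRY2 (-0.66) and SPRY4 (-0.62). With ICG-001 in PANC1 at 96 h, ETV5 was higher (0.7) and SPRY1 lower (-0.6). Against DMSO at 12 h, 0 of the 9 were lower in these PANC1 columns. DUSP6, SPRY2, SPRY4 and ETV5 were also named after their values were seen.

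Most listed genes of the bile acid receptor axis were not above the limit. NR1H4, which encodes FXR, was under the limit in all 12 columns, with signals of 119.9 to 128.2 in HCT116. Of 12 genes of the bile acid receptor axis 2 were tested in each comparison, and 0 changed in the 8 drug comparisons. The receptor side of GDF15 was as quiet: GFRAL was under the limit in all 12 columns, and RET lay between 133.4 and 168.3 in HCT116 and between 152.7 and 190.7 in PANC1, with log2 ratios between -0.19 and 0.02 against DMSO. Of 5 genes for the receptor and the processing enzymes of GDF15, 0 changed in HCT116 and 1 was lower in PANC1 with C646 at 12 h. This was FURIN, a protease named after its values were seen (-0.73, or -0.56 against DMSO at 96 h). FURIN was below DMSO of the same time in all 8 drug comparisons, from -0.28 to -0.73. Against DMSO of the other time it passed 1.5-fold in HCT116 at 12 h and in PANC1 at 96 h, with either drug.

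Some neighbours of FGF19 on chromosome 11 were also higher with ICG-001 in HCT116. The 9 neighbours listed lie within 4 protein-coding genes on one side (MYEOV) and 6 on the other (CTTN) in the RefSeq gene order, and 7 of them were tested. At 12 h 3 were higher and 0 lower, with a median log2 ratio of 0.53 beside 0.003 over all genes tested, and at 96 h 5 were higher and 0 lower, with a median of 0.95 beside 0.005. Over all genes tested, 821 of 16572 were higher at 12 h and 878 of 16728 at 96 h. CCND1, which encodes cyclin D1, had signals of 4164 and 4574 with DMSO and 8282 and 9808 with ICG-001 at 12 and 96 h, ratios of 0.99 and 1.1. LTO1, the gene next to FGF19 and listed under its older name ORAOV1, had 1.19 and 1.07, and FADD, an adaptor of death receptors, had 0.63 (0.51 against DMSO at 96 h) and 0.75. MYEOV had 0.53 at 12 h, short of 1.5-fold, and 0.95 at 96 h. The remaining 3 were named after their values were seen: ANO1, a chloride channel, had -0.10 and 1.37, CTTN, which encodes cortactin, had -0.52 and 0.57, and PPFIA1 had 0.28 and -0.02.

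With C646 in HCT116 the same 7 genes gave 1 higher and 1 lower at 12 h (LTO1 at 0.83 and MYEOV at -0.64) and 0 changed at 96 h. In PANC1, where FGF19 was under the limit, ICG-001 gave 1 higher at 12 h (LTO1, 0.61, or 0.36 against DMSO at 96 h) and 1 lower at 96 h (MYEOV, -0.75), and C646 gave 1 higher and 1 lower at each time, LTO1 at 0.95 and 0.59 and MYEOV at -0.95 and -0.89. FGF3 and FGF4, the ligand genes beside FGF19, were under the limit in all 12 columns. FGF19 with ICG-001 therefore moved together with CCND1, LTO1 and FADD in HCT116 at both times, but its ratio at 96 h (2.85) was above that of any of the 7.

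The integrated stress response is the program in which kinases that sense missing amino acids, misfolded protein or other stress slow translation and let ATF4 be made, and ATF4 then turns on its targets. GDF15 and FGF21 are both known to be induced in it. The list of 15 genes was chosen with earlier results of these columns known, so it is no independent support for a stress response, and its counts are a description. All 15 had a row, and 0 of them were lower in any drug comparison with DMSO of the same time.

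With ICG-001 in HCT116, 11 of the 15 stress genes were higher at 12 h (median 1.05) and 13 at 96 h (median 0.99), where GDF15 had 1.75 and 2.19. Over all genes tested, 821 of 16572 and 878 of 16728 were higher. TRIB3, a pseudokinase that ATF4 induces, had 2.3 and 2.73. DDIT3, which encodes CHOP, had 2.52 and 1.9, and PPP1R15A, which restores translation, had 2.56 and 0.99. ASNS, the asparagine synthetase, had 0.75 and 1.51, and CEBPG, a partner of ATF4, had 1.11 and 1.56. ATF4 itself had 0.35 and 0.71. Against the DMSO column of the other time, 11 were higher at either time, with medians of 1.18 and 0.98.

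With C646 in HCT116, 2 of the 15 were higher at 12 h (ATF5 at 0.77 and EIF2AK4 at 1.11), where GDF15 was lower, and 4 at 96 h (median 0.17), where GDF15 was higher. Among all genes tested, 441 of 16508 and 320 of 16561 were higher. DDIT3 and TRIB3 had -0.12 and 0.38 at 12 h and 0.67 and 0.85 at 96 h. At 12 h GDF15 was thus lower while neither of these genes passed 1.5-fold, and at 96 h all of them were higher. Against the DMSO column of the other time, 3 were higher at 12 h (ATF5, TRIB3 and EIF2AK4) and 3 at 96 h (DDIT3, PPP1R15A and EIF2AK4). ATF5 (0.78) and TRIB3 thus passed at 96 h only against DMSO of the same time. TRIB3 had 1.26 at 12 h and -0.03 at 96 h against that of the other time.

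In PANC1 with ICG-001, 12 of the 15 were higher at 12 h (median 0.82) and 11 at 96 h (median 0.69). Higher among all genes tested were 376 of 16793 and 667 of 16871. GDF15 was higher at the first time (1.61) and lower at the second (-0.61), whereas TRIB3 stayed at 2.73 and 2.10, DDIT3 at 0.82 and 1.13, NUPR1, a stress-induced chromatin protein, at 1.99 and 1.23, and CEBPB, a transcription factor, at 1.23 and 1.00. So at 96 h GDF15 and the stress genes differed in direction when the DMSO column of that time was used. These counts rest on the DMSO column too. Against DMSO at 96 h, the 12 h column had 5 of 15 higher (TRIB3, PPP1R15A, CEBPB, CEBPG and NUPR1; median 0.52), with TRIB3 at 1.44 and DDIT3 at 0.58. Against DMSO at 12 h, the 96 h column had 13 of 15 higher (median 1.33), and GDF15 was then higher too (0.80). In PANC1 with C646, 1 of 14 tested was higher at 12 h and 1 of 15 at 96 h, EIF2AK4 in each case (1.21 and 1.15), the kinase that senses uncharged tRNA. All genes tested gave 699 of 17149 and 481 of 16737 higher. Against the DMSO column of the other time, C646 gave 1 higher (EIF2AK4) and 3 lower (TRIB3, ASNS and NUPR1) at 12 h, and 6 higher and 0 lower at 96 h.

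Between the DMSO columns of PANC1, where GDF15 rose 2.65-fold with time, 5 of the 15 were higher and 0 lower, namely ASNS (1.34), TRIB3 (1.29), NUPR1 (1.19), ATF4 (0.81) and CEBPB (0.61). Between those of HCT116, 0 were higher and 2 were lower, ATF5 (-0.94) and TRIB3 (-0.88), and GDF15 had 0.13. Over all genes tested, 162 of 16304 were higher between the PANC1 DMSO columns and 260 of 16219 lower between those of HCT116. Between the drugs, ICG-001 over C646, 10 were higher and 1 lower in HCT116 at 12 h, 11 higher at 96 h, and in PANC1 11 and 10 were higher at 12 and 96 h. All genes tested gave 589 of 16712 and 553 of 16824 higher in HCT116, and 278 of 17205 and 587 of 17181 in PANC1.

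**Figure D4:**
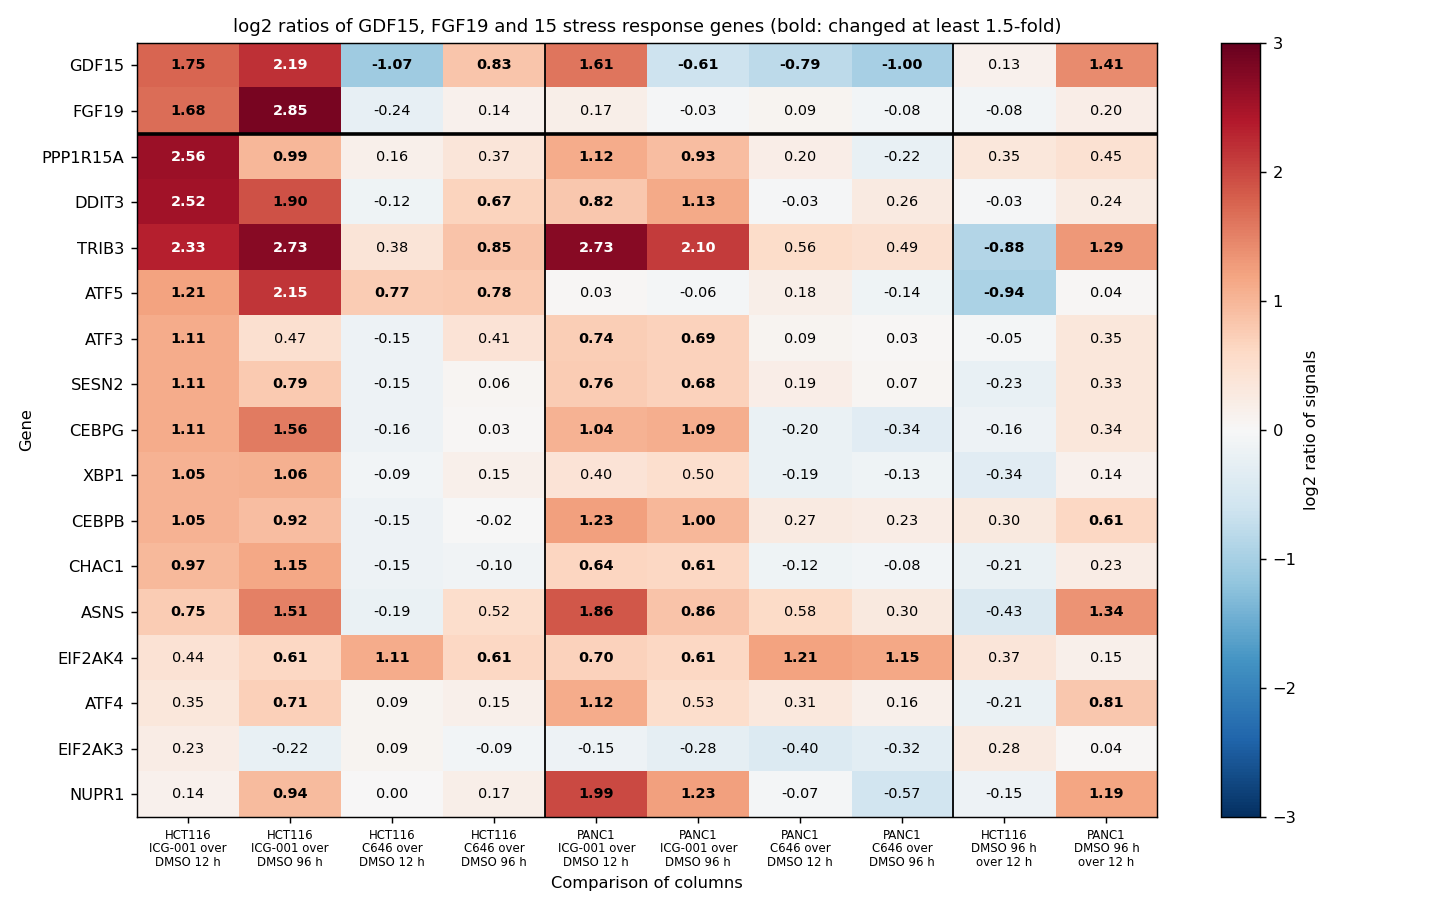
Log2 ratios of GDF15 and FGF19 (above the thick line) and of the 15 stress response genes (below it) in the 8 drug comparisons with DMSO and the 2 comparisons of DMSO columns; colours run from -3 (blue) to 3 (red), and bold marks a change of at least 1.5-fold. With ICG-001 in PANC1 at 96 h, GDF15 is at -0.61 while 11 of the 15 stress genes are higher; FGF19 in PANC1 was under the detection limit.

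The genes whose pattern over the 12 columns was most like that of a member were found by Pearson's r of log2 signals, each line centred on its own mean. Between 2020 and 2021 rows that vary by at least 1 on the log2 scale were compared. Columns share cells, DMSO and normalization, so r describes these 12 columns and has no p. For FGF19 the most alike were KLK6 (r = 0.988), a secreted protease, SLC22A15 (0.987), IL20RB (0.973), a cytokine receptor chain, LCN2 (0.972), a lipocalin, and PYGB (0.968), a glycogen phosphorylase. All 5 were higher with ICG-001 in HCT116 at both times, LCN2 by 1.94 and 4.96 and KLK6 by 1.40 and 2.43. In PANC1 their ratios with ICG-001 were between -0.07 and 0.25. By Spearman's rho these genes were less near the top, from 16th (IL20RB) to 38th (SLC22A15) of 2020 rows. FGF19 was under the limit in every PANC1 column, where its values carry no order, so its likeness rests on the HCT116 columns.

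For GDF15 the most alike were JUN (0.921), a subunit of AP-1, FAM84B (0.878), DKFZp761P0423 (0.866), PLAU (0.859), the urokinase, and BTG1 (0.848). JUN, like GDF15, was lower in PANC1 with C646 at 96 h than in DMSO of that time (-0.81). Both values lean on that DMSO column: JUN was 0.50 higher at 96 h than at 12 h in DMSO, and GDF15 turned higher against DMSO at 12 h. Against DMSO with ICG-001 at 96 h in PANC1, JUN had -0.16. PLAU was higher with ICG-001 in HCT116 by 2.26 and 2.63 and had 0.56 and 0.53 in PANC1. By Spearman's rho JUN was again first (0.909).

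For FGFR4 the most alike were TCF7L2 (0.968), the transcription factor that β-catenin joins at WNT target genes, ZNF395 (0.942), LOC100129323 (0.933), TUBB4 (0.933), a tubulin, and JUNB (0.930). TCF7L2 was lower than DMSO in every drug column of HCT116, with -1.14 and -1.34 in ICG-001 and -0.84 and -0.96 in C646. It was first by rho as well (0.937). Like FGF19, FGFR4 was under the limit in every PANC1 column, where its values carry no order. Both r and rho include those columns, so the likeness of FGFR4 rests on HCT116. For KLB r was lower, with SLC2A4RG (0.846), SLC44A2 (0.839), FAM65A (0.812), ZNF672 (0.794) and DNAJA4 (0.783), and the KLB signal itself moved little: its largest ratio against DMSO was 0.25, beside an SD of 0.062 to 0.074 for the ratios of genes under the limit.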

How the data were processed

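RNA of 12 groups (either cell line, any of the 3 treatments, both times) was measured on Illumina HumanHT-12 v4 arrays. The deposited table holds intensity on a linear scale for each gene name. The authors exported these intensities from GenomeStudio (version not given in the sources used here), quantile normalized and with no background subtracted, and averaged independent biological replicates. Groups were taken from the labels. Values of single arrays were not used here, so no spread, test or p-value is given, and the number of arrays limits the precision. Background left in the signal makes ratios understate changes of dim genes.

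Log2 signals were subtracted between columns. For each column a detection limit was set at the mode of log2 signals plus 2.33 SD, the SD being that of values under the mode. Genes above it in at least 1 of the 2 columns were tested, and a ratio of at least 1.5 was counted as changed. The members, gene lists and alternatives were chosen with earlier results of these data known. Named genes were the members, the genes of the 10 pathway lists that changed the same way at both times with 1 drug in 1 line, 10 further list genes (NR1H4, GFRAL, RET, KL, FGFR1, FGFR2, FGFR3, ATF4, DDIT3 and CCND1), and the 5 rows most like each measured member. Alternatives were thresholds of 1.2 and 2, no filter, a limit at 5 SD, normexp (offset 16) with quantile normalization, centring, quantile normalization over all 12 columns, Spearman's rho for likeness and, added after seeing the data, the DMSO column of the other time. Markers and pathway genes were matched to rows by current or older symbols. Tools were Python 3.11.15, R 4.3.3, limma 3.58.1 (for normexp), pandas 2.3.3, numpy 2.4.6, matplotlib 3.10.9 and scipy 1.17.1. The procedure was tested on simulated data.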

Additional observations from a re-analysis of the deposited data

Results flagged for a closer look

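For 7 genes of the pathway lists, the log2 ratios at 12 and 96 h had one sign in HCT116 and the opposite sign in PANC1. Each ratio was taken against DMSO of the same time, and the difference between the lines was not tested in any case. Such a pattern was not counted over all genes, so no share stands beside the 7 and they are a description only. FGFR3, an FGF receptor kinase, had log2 ratios of -0.92 and -0.22 with ICG-001 in HCT116 at 12 and 96 h and of 0.12 and 0.58 in PANC1, a mean difference of -0.92. NUPR1, a stress-induced chromatin protein, had 0.00 and 0.17 with C646 in HCT116 and -0.07 and -0.57 in PANC1, a mean difference of 0.41, but its HCT116 value at 12 h was not apart from DMSO. CEBPB, which encodes a C/EBP transcription factor, had -0.15 and -0.02 with C646 in HCT116 and 0.27 and 0.23 in PANC1, a mean difference of -0.33. PCSK5, a protease, had 0.08 and 0.41 with C646 in HCT116 and -0.15 and -0.10 in PANC1, a mean difference of 0.37. PLCG1, a phospholipase, had -0.20 and -0.25 against 0.01 and 0.12 with the same drug, a mean difference of -0.29. The mean differences of FGF11 with ICG-001 (-0.15) and of CPT1A with C646 (-0.07) were smaller still. Of all these ratios the FGFR3 value of -0.92 alone passed 1.5-fold, and several lay within the SD of 0.062 to 0.074 of genes under the limit. Some PANC1 signs also rest on the DMSO column. With ICG-001 at 12 h, the FGFR3 signal of 235.5 lay between those of DMSO at 12 h (216.9) and 96 h (286.8). With C646, CEBPB at 12 h (1476.1) lay between 1226.5 and 1873.3, and NUPR1 at 96 h (333.6) between 216.9 and 496.5. Against the DMSO column of the other time these ratios have the other sign.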

How the results depend on the processing

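Over the 8 drug comparisons 11 member ratios passed 1.5-fold, and 6 passed a threshold of 2. Between the DMSO columns 1 passed 1.5-fold, and 2 passed a threshold of 1.2. No filter and a limit at 5 SD alter only which genes are tested. They cannot move a ratio, so 0 of 70 member ratios moved by construction. Centring also moved 0 of 70, and quantile normalization over all columns moved 4. No call was lost or gained under these 4 settings. With the limit at 5 SD, KLB was no longer tested in some comparisons, among them HCT116 with ICG-001 at 12 and 96 h. Normexp moved 52 of 70, lost 0 calls and gained 6, which were FGFR4 in HCT116 (ICG-001 at 12 h, C646 at both times), KLB with C646 at 12 h in both lines, and KLB between the drugs in HCT116 at 12 h. With the DMSO column of the other time, chosen after seeing the data, 18 of 40 ratios moved, 3 calls were lost, 2 were gained and 2 ratios of GDF15 in PANC1 at 96 h reversed, from -0.61 to 0.80 with ICG-001 and from -1.0 to 0.41 with C646. The gained calls were FGFR4 in HCT116 at 12 h with either drug (-0.75 with ICG-001, -0.64 with C646). The lost calls were FGFR4 in HCT116 with ICG-001 at 96 h and GDF15 in PANC1, once for each drug (ICG-001 at 12 h, C646 at 96 h). Over all genes, the count changed in HCT116 with ICG-001 at 96 h was 1752 at 1.5-fold, 5807 at 1.2, 368 at 2 and 3757 with normexp, and in PANC1 with ICG-001 at 12 h it was 434, 2946, 61 and 1211. The cause of these shifts was not tested. No paired analysis was possible because each group had 1 column. Signals under the detection limit carry no order, which holds for FGF21 in both lines and for FGF19 and FGFR4 in PANC1.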

Other observations

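GDF15 and FGF21 are also known targets of other regulators, whose genes were listed beside the stress genes. Of 10 p53 target genes, 9 were tested in HCT116, and 2 were higher with ICG-001 at both times. These were CDKN1A, the cell cycle inhibitor p21, with log2 ratios of 1.06 and 1.12, and TNFRSF10B, a death receptor, with 1.31 and 0.93. With C646 in HCT116, CDKN1A had 0.13 at 12 h and 1.37 at 96 h, the time at which GDF15 was higher with that drug (0.83), and its value at 12 h, when GDF15 was lower (-1.07), did not pass 1.5-fold. ZMAT3, a p53 target named after its values were seen, was higher with C646 in HCT116 at that time (0.64). In PANC1, against DMSO of the same time, 0 of the tested p53 targets changed with ICG-001. With C646 at 12 h 1 was higher (CDKN1A, 0.87, or 0.23 against DMSO at 96 h), where GDF15 was lower (-0.79). These counts rest on the DMSO column too. Against DMSO at 12 h, 2 were higher at 96 h with ICG-001 (CDKN1A and TNFRSF10B) and 2 with C646 (CDKN1A and ZMAT3). Of all genes tested, 12.1% and 9.91% changed in these 2 comparisons.

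Of 8 genes of the PPAR axis, which induces FGF21 in the fasting liver, 5 were tested in HCT116 and 4 in PANC1. PPARA, the receptor itself, was under the limit in all 12 columns, with signals of 121.5 to 133.6 in HCT116, and so was FGF21. ANGPTL4, a secreted target of the axis that was named after its values were seen, had 1.15 with C646 in HCT116 at 96 h, and in PANC1 it had 0.67 and -1.13 with ICG-001 at 12 and 96 h and 0.66 and -0.04 with C646. Against the DMSO column of the other time these PANC1 ratios were -0.38, -0.08, -0.39 and 1.01. PPARG, named on the same ground, had 0.98 with ICG-001 in HCT116 at 96 h.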
